A study of Homo sapiens with 6 samples.

Results

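The CCT chaperonin, also called TRiC, is assembled from 8 related proteins encoded by TCP1, CCT2, CCT3, CCT4, CCT5, CCT6A, CCT7 and CCT8. These genes were chosen by symbol from the normalized count table of SaOS-2 cells, in which all 8 were found among 23228 gene names. All 8 were also among the 13255 genes that passed the filter on low values, a mean normalized count of at least 10. SaOS-2 is a human osteosarcoma cell line that lacks functional RB and p53, and the cells used here carried a Tet-inducible p21 vector. RNA was sequenced from 3 libraries without doxycycline (p21 OFF) and from 3 libraries of cells given 1 μg/ml doxycycline for 24 h (p21 ON). All 6 libraries came from the same engineered line, and cells given the drug without the vector were not analysed here, so effects of doxycycline and of p21 cannot be told apart. Nothing in the labels says that replicates came from separate cultures, so p-values measure the spread between these libraries, which may be technical, although the methods of the study speak of biological replicates. The libraries held 12795490 to 21975045 reads on genes, and every value is relative to the other transcripts of its library, so less RNA per cell and fewer expressing cells cannot be told apart.

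The induction and the cell type were checked first. CDKN1A, the p21 gene, had 1187 to 1355 normalized counts in the p21 OFF libraries and 40470 to 46739 in the p21 ON libraries. Of the osteoblast markers examined, RUNX2, SP7, ALPL and COL1A1 each had group means of at least 3403 normalized counts, while COL1A2, SPP1 and BGLAP had group means between 0 and 3.67. Of 6 markers of other cell types, EPCAM had a mean of 330 normalized counts in p21 OFF cells and 313 in p21 ON cells, VWF had 53.6 and 77.2, and PTPRC, CD3E, KRT20 and PECAM1 had group means between 0 and 13.5. Only 2 markers of these lists were called, IBSP as lower (129.5 and 99.0 normalized counts, limma adjusted p = 0.0264) and VWF as higher (limma adjusted p = 0.0333), and neither was called by DESeq2 or without p21 ON replicate 1 or 3. The part of such marker differences in the CCT levels was not tested.

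CCT folds newly made proteins in the cytosol inside a double ring in which each ring holds one copy of every subunit. ATP binding and hydrolysis by the subunits close a built-in lid over the folding chamber. Actins and tubulins are its best known clients, and they are handed over by prefoldin, a separate chaperone of small subunits. Other clients include cell cycle proteins such as CDC20, PLK1 and cyclin E. Because the ring needs every subunit, the 8 genes are usually expressed together, although they lie on different chromosomes except for CCT4 and CCT7.

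The region before the start of each gene was read from GRCh37, the build of the files, in the 250 bases before the start of the canonical transcript in GENCODE release 44. A CCAAT box is bound by the factor NF-Y. It occurred on either strand in 5 of the 8 windows, against 34.3% of the windows of 19779 protein-coding genes. It was found before TCP1, CCT2, CCT3, CCT6A and CCT8. The longest stretch free of annotated exons lay before CCT2, on the plus strand at chr12:69978989-69979205, and is printed with its CCAAT box in capitals.
CCT2: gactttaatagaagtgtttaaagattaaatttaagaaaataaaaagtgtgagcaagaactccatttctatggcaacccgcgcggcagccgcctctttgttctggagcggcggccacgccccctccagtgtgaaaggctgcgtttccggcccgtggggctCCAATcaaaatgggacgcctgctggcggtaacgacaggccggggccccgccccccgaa

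The CCAAT boxes of the other genes are shown with 10 bases on each side, in the direction of the subunit gene, with the box or its reverse complement in capitals. The box of TCP1 began 154 bases before the canonical start, those of CCT3 began 75 and 34 bases before it, those of CCT6A 86 and 56 bases before it, and that of CCT8 63 bases before it. None of them overlapped another motif searched for, and the heat shock motif of TCP1 printed further on lies beyond the first annotated start of MRPL18, the gene read in the other direction. The boxes of CCT3, that of CCT6A at 56 bases and that of CCT8 lie inside the annotated span of their own gene. An annotated transcript of the same gene therefore starts before them.
TCP1, chr6:160210774-160210798, minus strand: cggctatctaATTGGacaaaaatgc
CCT3, chr1:156308144-156308168, minus strand: aaggctgtcaATTGGtctgtttttg
CCT3, chr1:156308103-156308127, minus strand: gggtgcggtgATTGGcgactacctt
CCT6A, chr7:56119362-56119386, plus strand: cagccgcggaCCAATgagcgggcgc
CCT6A, chr7:56119392-56119416, plus strand: gacctgtggcCCAATggcggcggcg
CCT8, chr21:30446018-30446042, minus strand: gggtgggctaATTGGagagccagga

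Pairs of the units GAA and TTC, the core of the heat shock element bound by HSF1, were searched for on both strands as GAANNTTC and TTCNNGAA. The first occurred before TCP1 alone, against 4.65% of all windows, and the second occurred in 2 places before CCT5, against 5.37%. The CCT5 places lie before its canonical start but inside the annotated span of the gene. An E2F site, written as TTTCCCGC, TTTCGCGC, TTTGCCGC or TTTGGCGC, was present before TCP1 alone, against 3.77% of all windows. These sites are shown because heat shock genes and cell cycle genes are compared with the subunits in these libraries, with the motif in capitals and 10 bases on each side.
TCP1 heat shock motif, chr6:160210848-160210875, minus strand: cgtttgaggcGAAGGTTCaacctcttcc
TCP1 E2F motif, chr6:160210798-160210825, minus strand: cgttctccgcTTTCGCGCccttcccatc
CCT5 heat shock motif, chr5:10250257-10250284, plus strand: ataatagaagTTCCCGAAggccgccgat
CCT5 heat shock motif, chr5:10250274-10250301, plus strand: aggccgccgaTTCCAGAAgatactgtct

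Of the other motifs searched for on both strands, the GC box GGGCGG was present before 4 subunits (59.2% of all windows), the ETS motif CCGGAAG before CCT2 (12% of all windows) and the CHR element TTTGAA before CCT5 (10.1%). The E-box CACGTG (7.87%) and TATAAA (9.28%) were before none of the 8. CCT4 and CCT7 held none of the motifs. A match is a description of the letters in these windows only.

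All 8 CCT subunits had lower transcript levels after p21 induction. The changes were small and alike in size, from -14.7% for CCT6A to -20.0% for CCT2, with a median log2 fold change of -0.29 beside 0.0056 for all genes tested. By limma on log2(normalized count + 1) with Benjamini-Hochberg adjustment over all genes, 8 of 8 subunits were lower at an adjusted p-value under 0.05, against 12.7% of the 13255 genes. No subunit was higher, against 10.5% of all genes. Scaled by library size alone, 7 of 8 subunits were called lower against 9.01% of all genes, with 1194 genes lower and 2034 higher in place of 1681 and 1393. Every p21 ON library lay below every p21 OFF library for all 8 subunits, against 21.3% of all genes, and the exact permutation test (two-sided) returned p = 0.1 for each, which is the lowest value that 3 libraries against 3 allow.

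The subunits are abundant transcripts, with at least 2959 reads in every library and mean normalized counts, not divided by length, above 93.8% to 98.8% of the genes tested, so counting error was small. Among 823 genes expressed at or above the mean of the lowest subunit, 3791 normalized counts, 23.7% were called lower and the median log2 fold change was -0.06. Without p21 ON replicate 1, 6 of the 8 subunits were called, with CCT3 and CCT6A lost, and 6.69% of all genes were called lower. Without p21 ON replicate 3 the count was also 6, with CCT6A and CCT8 lost, and the share of all genes was 8.13%.

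TCP1, the founding member and alpha subunit, lies on chromosome 6 from 160199530 to 160210735 on the minus strand. Levels were 7027, 6665 and 6275 normalized counts in p21 OFF replicates 1, 2 and 3 and 5333, 5856 and 5128 in p21 ON replicates 1, 2 and 3. The groups were separate, and the level fell by 18.3%, with a log2 fold change of -0.29 (SE 0.06, limma adjusted p = 0.00384). Exons of ACAT2, read from the opposite strand, cover 19.3% of its canonical transcript.

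CCT2, the beta subunit, in which variants cause an inherited retinal disease, lies on chromosome 12 from 69979206 to 69995350 on the plus strand. Levels were 10315, 9249 and 8824 normalized counts with p21 OFF and 7496, 7948 and 7226 with p21 ON. This was the largest fall of the 8, by 20.0%, with a log2 fold change of -0.32 (SE 0.07, limma adjusted p = 0.00211).

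CCT3, the gamma subunit, lies on chromosome 1 from 156278759 to 156337664 on the minus strand. Its p21 OFF libraries had 6322, 6119 and 6223 normalized counts, a closer group than for any other subunit, and the p21 ON libraries had 4906, 5611 and 5087. On the log2 scale the difference was -0.26 (SE 0.06, limma adjusted p = 0.00565). Without p21 ON replicate 1 it was -0.22 with an adjusted p of 0.0573.

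CCT4, the delta subunit, which can form rings of its own in the test tube, lies on chromosome 2 from 62095220 to 62115806 on the minus strand. Levels were 7555, 6791 and 6774 normalized counts with p21 OFF and 5654, 6014 and 5563 with p21 ON. The groups lay apart, with a change of -18.4% and a log2 fold change of -0.29 (SE 0.06, limma adjusted p = 0.00278).

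CCT5, the epsilon subunit, in which a variant causes a hereditary sensory neuropathy, lies on chromosome 5 from 10250041 to 10266501 on the plus strand. Levels were 8813, 8293 and 8276 normalized counts with p21 OFF and 6616, 7200 and 6710 with p21 ON. Its adjusted p-value was the lowest of the 8, with a log2 fold change of -0.31 (SE 0.06, limma adjusted p = 0.00134). An RNA annotated on the opposite strand covers 52.7% of the canonical CCT5 transcript, and the strand setting used for counting is not given in the sources used here. Such overlap was 19.2% for CCT4, 4.58% for CCT8 and 0 for CCT2, CCT3, CCT6A and CCT7.

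CCT6A, the zeta subunit of most tissues, lies on chromosome 7 from 56119378 to 56131682 on the plus strand. Levels were 4393, 4095 and 3793 normalized counts with p21 OFF and 3445, 3741 and 3283 with p21 ON. The gap between the groups was narrow, with 3793 as the lowest p21 OFF value and 3741 as the highest p21 ON value. Its log2 fold change of -0.23 was the smallest of the 8 (SE 0.07, limma adjusted p = 0.0199), and over all alternatives the adjusted p ranged from 0.00731 to 0.113. It was not called under scaling by library size alone (adjusted p = 0.0529), without p21 ON replicate 1 (adjusted p = 0.0896) or without p21 ON replicate 3 (adjusted p = 0.113).

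CCT7, the eta subunit, lies on chromosome 2 from 73460548 to 73480149 on the plus strand and was the most abundant of the 8. It had 11221, 10748 and 10564 normalized counts with p21 OFF and 8773, 9543 and 8628 with p21 ON. On the log2 scale the difference was -0.27 (SE 0.06, limma adjusted p = 0.00371), and the level fell by 17.2%.

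CCT8, the theta subunit, lies on chromosome 21 from 30428126 to 30446118 on the minus strand. Levels were 4961, 4288 and 4324 normalized counts with p21 OFF and 3511, 4034 and 3428 with p21 ON. On the log2 scale the difference was -0.31 (SE 0.07, limma adjusted p = 0.00577), and the closest values of the groups were 4288 with p21 OFF and 4034 with p21 ON. Without p21 ON replicate 3 it was -0.26 with an adjusted p of 0.0534.

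**Figure D1:**
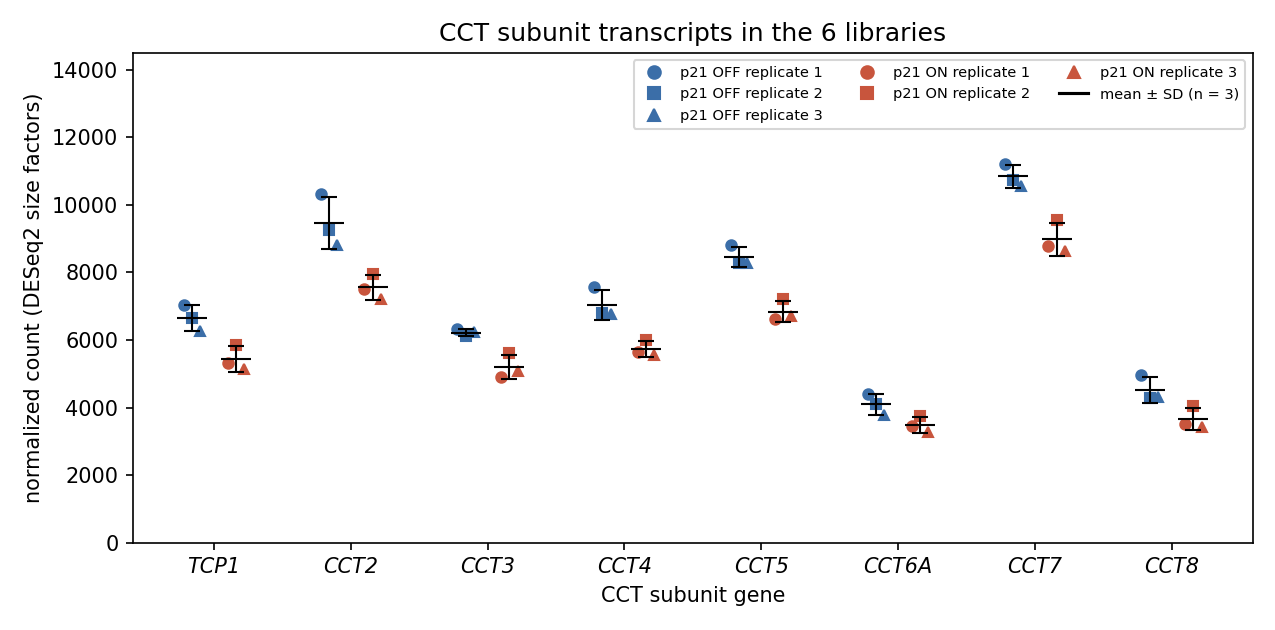
Normalized counts (y axis, linear from 0) of the 8 CCT subunit genes (x axis) in the 3 p21 OFF libraries (blue) and the 3 p21 ON libraries (red), with symbols for the replicate and black bars for mean ± SD (n = 3). All red points lie below all blue points for each gene, most narrowly for CCT6A, and within the red points replicate 2 is the highest for each gene.

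The subunits moved together within each group as well as between the groups. The mean over the 8 genes of the log2 level, centred on each gene's own mean, was 0.23, 0.12 and 0.08 in p21 OFF replicates 1, 2 and 3. It was -0.18, -0.05 and -0.20 in p21 ON replicates 1, 2 and 3. For all 8 genes the highest p21 OFF value was in replicate 1 and the highest p21 ON value in replicate 2, and the range over the 8 genes within a library stayed between 0.15 and 0.29 in p21 OFF replicate 1 and between -0.09 and -0.01 in p21 ON replicate 2. These were also the libraries with the fewest reads on genes in their groups, 12795490 and 12918390, and the lowest means were in the libraries with the most reads, 21975045 and 16630552. Of other cytosolic chaperone genes, HSP90AA1 and HSP90AB1 were highest in the same libraries, while HSPA8 had its highest p21 OFF value in replicate 2. The share of all genes with this pattern was not counted. The part of depth in the order of the libraries was not tested.

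**Figure D2:**
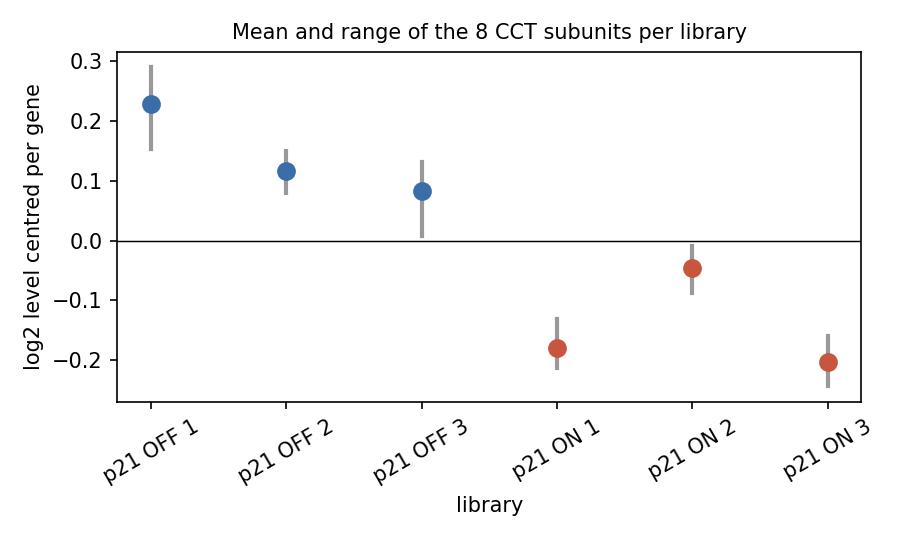
Log2 level centred on each gene's mean over the 6 libraries (y axis) for each library (x axis), with dots for the mean of the 8 CCT subunits (blue, p21 OFF, red, p21 ON) and grey lines from the lowest to the highest subunit. The p21 OFF means lie between 0.08 and 0.23 and the p21 ON means between -0.20 and -0.05.

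As a share of all reads on genes, the 8 subunits together took 0.353% ± 0.0207 (SD, n = 3) in p21 OFF libraries and 0.298% ± 0.0169 (SD, n = 3) in p21 ON libraries. The lowest p21 OFF share was 0.339% and the highest p21 ON share was 0.317%.

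The proportions between the subunits changed little. The log2 level of each subunit minus the mean of the 8 in the same library shifted between the groups by -0.04 for CCT2 to 0.06 for CCT6A, and the p21 ON and p21 OFF values overlapped for 7 of the 8. For CCT6A, where nothing can be read from 1 separation in 8 with 3 libraries a group, the values were -0.74 ± 0.04 without induction and -0.68 ± 0.02 after it (SD, n = 3 each, p = 0.1 in the exact permutation test, its lowest possible value).

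The subunits were ranked against one another only per length of the canonical transcript, which was 1847 to 3293 bases for the subunits. In normalized counts per kb, CCT7 stood first with 5871 ± 184 (SD, n = 3) in p21 OFF cells, followed by CCT2 with 4939 ± 401 (SD, n = 3). CCT3, CCT4, TCP1, CCT5 and CCT8 formed a middle group, from 3147 ± 51.3 for CCT3 to 2440 ± 204 for CCT8, in which each gene overlapped its next neighbour in both groups of libraries. CCT6A was lowest with 1584 ± 116 (SD, n = 3).

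The same order was found in each of the 6 libraries, from CCT7 to CCT6A, and the ratio of the highest to the lowest level per kb was between 3.56 and 3.90 in every library. In p21 ON cells CCT7 had 4863 ± 266 and CCT6A 1350 ± 89.8 normalized counts per kb (SD, n = 3 each). The order between CCT7 and CCT6A, the place of CCT2 included, rests on which transcript is used. With the union of all annotated exons as the length, CCT4 stood second, above CCT2, in every library. CCT5 stood above TCP1 and CCT8 in every library, and TCP1 and CCT8 changed places between libraries. CCT7 remained first and CCT6A last in every library.

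**Figure D3:**
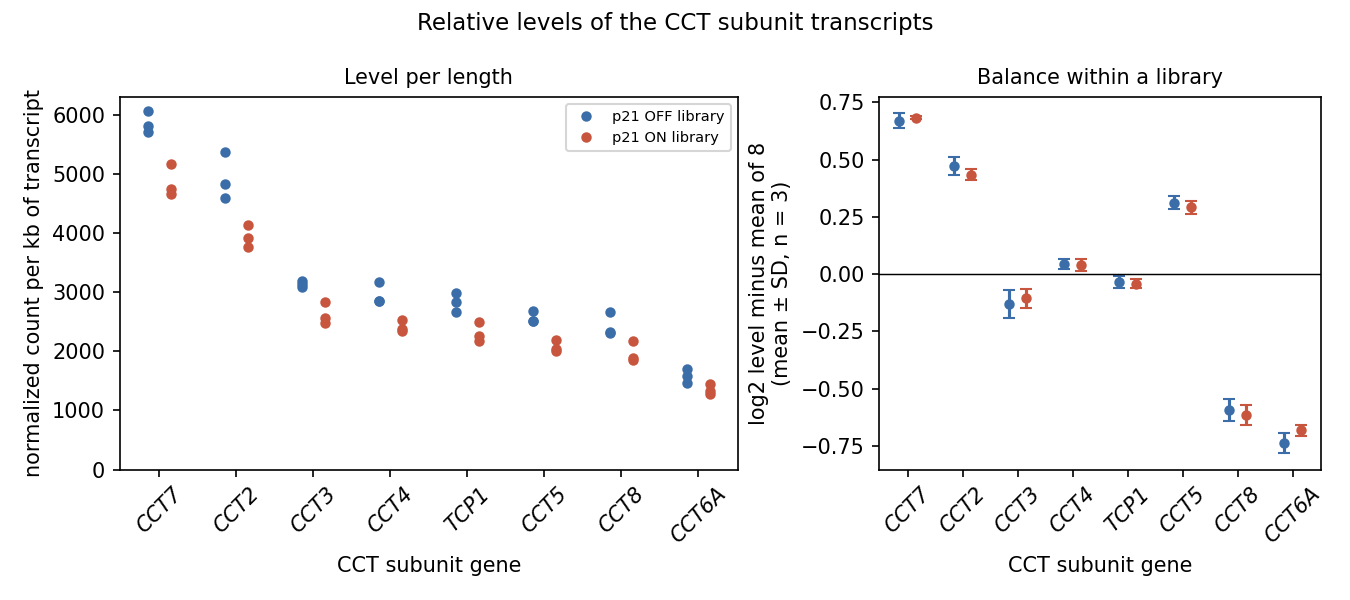
Left, normalized counts per kb of canonical transcript (y axis, linear from 0) of the 8 CCT subunits (x axis) in each p21 OFF (blue) and p21 ON (red) library. Right, log2 level minus the mean of the 8 subunits in the same library (y axis), mean ± SD (n = 3). The order from CCT7 to CCT6A is the same in both groups, and the shifts on the right lie between -0.04 and 0.06.

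CCT6A has close copies, and reads that match several of them can be lost or split in counting. CCT6B, the zeta subunit of the testis, had 2.33 to 6.09 normalized counts in p21 ON and 2.22 to 3.91 in p21 OFF libraries, below the filter. The pseudogene CCT6P1 had 52.2 ± 12.9 and 63.8 ± 8.78 normalized counts (SD, n = 3 each) in p21 OFF and p21 ON cells (log2 fold change 0.30, limma adjusted p = 0.25). CCT6P3, another pseudogene, was called higher, at 29.1 ± 3.53 with p21 OFF and 45.5 ± 5.69 with p21 ON (SD, n = 3 each), or 0.63 on the log2 scale (limma adjusted p = 0.0282), and it was not called by DESeq2 or when the first p21 OFF library or either of the first and second p21 ON libraries was dropped. CCT6A itself had 3283 or more normalized counts, and these values are not divided by length.

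Of the other proteins with the chaperonin fold, MKKS, which belongs with BBS10 and BBS12 to a complex that assembles the BBSome of cilia, averaged 731 ± 59.0 normalized counts with p21 OFF and 585 ± 53.2 with p21 ON (SD, n = 3 each), or -0.32 on the log2 scale (limma adjusted p = 0.0103). It was not called without p21 ON replicate 1. BBS10 and BBS12 had log2 fold changes of 0.11 and 0.19 that were within the spread between replicates. CCT8L2 was at 0 in all 6 libraries.

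Most subunit genes share a start region with a gene read in the other direction. Within 1000 bp of an annotated start, the closest such genes in the table were MRPL18 for TCP1 (109 bp), TSACC for CCT3 (192 bp), COMMD1 for CCT4 (53 bp), ATPSCKMT for CCT5 (32 bp), PSPH for CCT6A (81 bp) and PRADC1 for CCT7 (181 bp). MRPL18, a mitochondrial ribosomal protein gene, fell with TCP1, from 1306, 1176 and 1149 to 838, 1025 and 908 normalized counts (log2 fold change -0.39, limma adjusted p = 0.00178). PRADC1, a secreted protein gene, fell with CCT7. Its mean was 481 ± 14.6 normalized counts with p21 OFF and 397 ± 28.2 with p21 ON (SD, n = 3 each), a difference on the log2 scale of -0.28 (limma adjusted p = 0.018).

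PRADC1 was not called when the second p21 OFF library or either of the first and second p21 ON libraries was dropped. With the length trend taken out it was not called either. The other 4 were not called, and 12.7% of all genes tested were called lower in the main fit. For CCT2 the closest was MIR3913-2, at 0 in every library, and CCT8 had no such gene in the table. ATPSCKMT, listed as FAM173B, had a log2 fold change of -0.28 (limma adjusted p = 0.0793), COMMD1 had -0.17, TSACC, listed as C1orf182, had -0.18 and PSPH had -0.09. Whether a subunit and its neighbour differ in response was not tested.

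Prefoldin, which delivers unfolded actin and tubulin to CCT, moved the same way. Its 6 subunits were all tested, 5 were called lower and none higher, against 12.7% and 10.5% of all genes tested. Their median log2 fold change was -0.28. PFDN5 averaged 2256 ± 265 normalized counts with p21 OFF and 1798 ± 105 with p21 ON (SD, n = 3 each), or -0.32 on the log2 scale (limma adjusted p = 0.00584). PFDN1 and PFDN6 each had -0.29, PFDN2 had -0.27 and VBP1 had -0.23, all called, and PFDN4 had -0.20 (limma adjusted p = 0.0906).

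The prefoldin calls were less stable than those of CCT. Prefoldin genes also had lower counts, with p21 OFF means of 383 to 2256 normalized counts against 4093 to 10844 for CCT. Their SEs were 0.07 to 0.09 against 0.06 to 0.07, and the part of this in the calls was not tested. Of the 5 calls, 1 was left when p21 ON replicate 1 was dropped, where 6.69% of all genes were called lower. There were 3 when p21 OFF replicate 1 (12.2% of all genes), p21 OFF replicate 2 (10.4%) or p21 ON replicate 3 (8.13%) was dropped. There were also 3 under scaling by library size alone (9.01%). Log2 fold changes rose with transcript length across genes (Spearman correlation 0.37 over 11293 genes, which are not independent replicates), and prefoldin transcripts are short, with a median of 982 bases against 2164.5 for CCT and 3471 for all genes with a length. When a trend with length was taken out of every library, an alternative added after seeing the data, 0 of the 6 prefoldin subunits and 8 of the 8 CCT subunits were called lower, with medians of -0.09 and -0.23. Of the 11293 genes in that fit, 13.2% were called lower.

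Of 6 genes of the prefoldin-like R2TP and URI group, 3 were lower and none was higher. Of all genes tested, 12.7% were lower and 10.5% higher. RUVBL2, an AAA+ ATPase, had a log2 fold change of -0.38 (limma adjusted p = 0.000265), the prefoldin-like UXT -0.30 (limma adjusted p = 0.00754) and RUVBL1 -0.20 (limma adjusted p = 0.0431). RUVBL1 was not called by DESeq2, under scaling by library size, or when replicate 2 of p21 OFF or replicate 1 or 3 of p21 ON was dropped. After the length trend was taken out, 1 of 5 was called lower, against 13.2% of all genes in that fit.

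The phosducin-like proteins bind the CCT ring and assist or inhibit folding. TXNDC9 was called lower. It averaged 461 ± 49.2 normalized counts with p21 OFF and 379.9 ± 22.5 with p21 ON (SD, n = 3 each), or -0.27 on the log2 scale (limma adjusted p = 0.0332). PDCL3 had a log2 fold change of -0.36 and PDCL, a helper in the folding of G protein beta subunits, one of -0.11, and neither was called. PDCL2 was at 0 in every library. TXNDC9 was not called by DESeq2, under scaling by library size, with the length trend taken out, or when replicate 1 of p21 OFF or replicate 1 or 3 of p21 ON was dropped.

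Tubulin cofactors, which take tubulin from CCT and join it into dimers, included 4 genes called lower out of 6, against 12.7% of all genes. TBCC had a log2 fold change of -0.35 (limma adjusted p = 0.0113), TBCB of -0.29 (limma adjusted p = 0.00818) and TBCA of -0.22 (limma adjusted p = 0.0405), while TBCD and TBCE had 0.08 and -0.05. ARL2, the other gene called, had -0.25 (limma adjusted p = 0.0496). It was not called by DESeq2, with TMM factors, under scaling by library size, with 10 as the pseudocount or without the filter. Nor was it called with the length trend taken out, or when p21 OFF replicate 2 or any p21 ON library was dropped. TBCA was not called by DESeq2, under scaling by library size, or with the length trend taken out. It was also not called when p21 OFF replicate 3 or p21 ON replicate 1 or 3 was dropped. TBCB was not called with the length trend taken out, and TBCC was not called without p21 ON replicate 1. The number of cofactors called lower was 1 without p21 ON replicate 1 (6.69% of all genes) and with the length trend taken out (13.2%). It was 2 without p21 ON replicate 3 (8.13%), by DESeq2 (10.6%) and under scaling by library size (9.01%).

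Most chaperones that act before or beside CCT in the cytosol fell too. In the list of the HSP70 and HSP90 system, 13 of 15 genes were lower and none was higher. Of all genes tested, 12.7% were lower and 10.5% higher. The median log2 fold change of the list was -0.31. HSPA1B, a stress-inducible HSP70 gene, had 796, 856 and 795 normalized counts with p21 OFF and 503, 526 and 512 with p21 ON, a log2 fold change of -0.67 (limma adjusted p = 1.64e-06). It is nearly identical to HSPA1A, so reads may be divided between them.

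AHSA1, which stimulates the HSP90 ATPase, had a log2 fold change of -0.41 (limma adjusted p = 0.000132), and STIP1, which links HSP70 to HSP90, one of -0.35 (limma adjusted p = 0.000299). The co-chaperone gene CDC37 and the ubiquitin ligase gene STUB1 had log2 fold changes of -0.08 and -0.03 and were not called. The count ranged from 10 to 13 with each library left out, against 6.69% to 12.5% of all genes. It was 13 with the length trend taken out, against 13.2% of the 11293 genes in that fit.

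In the mitochondrial chaperonin, which has the same overall task in another compartment, both genes were lower, against 12.7% of all genes tested. HSPD1 averaged 4362 ± 198 normalized counts with p21 OFF and 3550 ± 376 with p21 ON (SD, n = 3 each), or -0.30 on the log2 scale (limma adjusted p = 0.00572), and was not called without p21 ON replicate 3. HSPE1, its small lid protein, had 143 ± 27.4 and 77.6 ± 17.3 normalized counts and a log2 fold change of -0.88 (limma adjusted p = 0.000965). HSF1 and HSF2, the heat shock factors, were not called. HSF1 had a log2 fold change of -0.14 (limma adjusted p = 0.0935) and HSF2 of 0.0020 (limma adjusted p = 0.988).

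**Figure D4:**
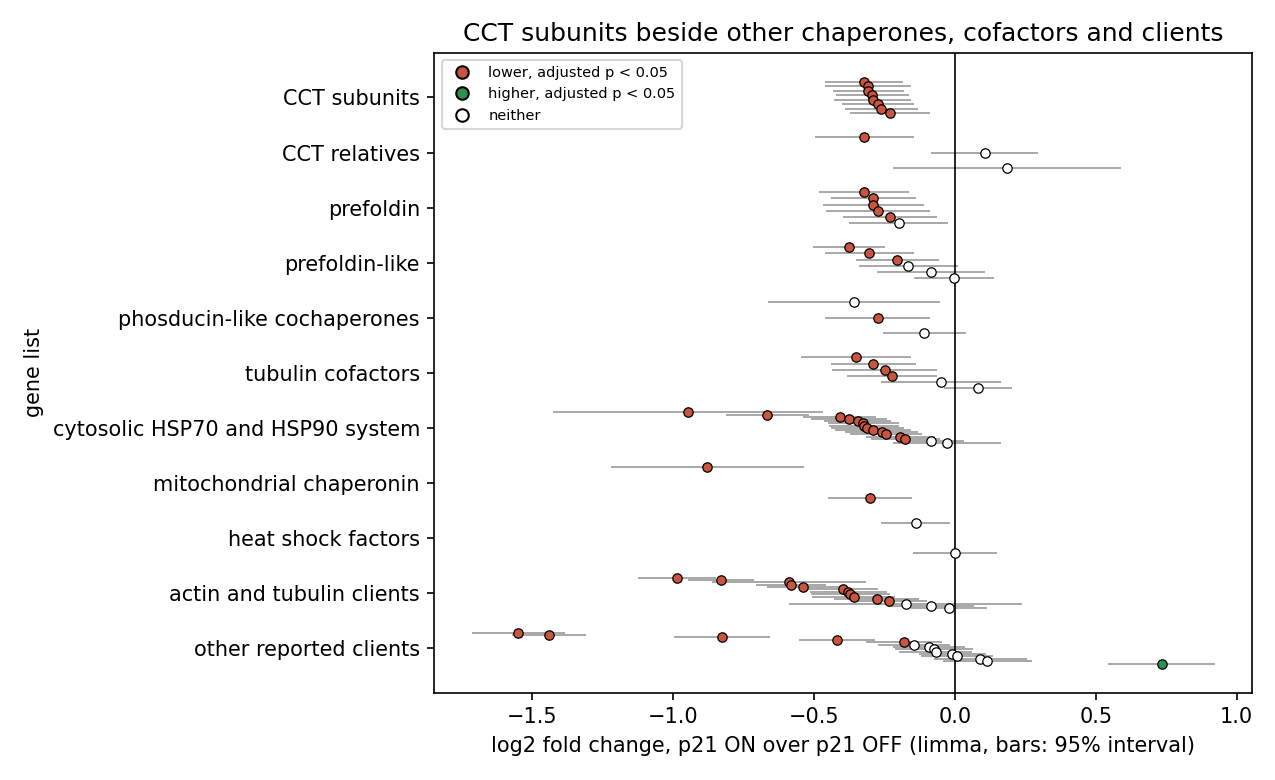
Log2 fold change of p21 ON over p21 OFF (x axis) for each tested gene of 11 lists (y axis), with 95% intervals from limma as grey bars, red for called lower, green for called higher and white for neither. The 8 CCT subunits lie between -0.32 and -0.23, next to 5 of 6 prefoldin subunits and most HSP70 and HSP90 genes, while the reported clients spread from -1.55 to 0.73.

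Most transcripts of the main CCT clients fell. Of 14 actin and tubulin genes, 11 were lower and none was higher, against 12.7% and 10.5% of all genes tested. Their median log2 fold change was -0.37. TUBA1C averaged 4350 ± 356 normalized counts with p21 OFF and 2190 ± 65.9 with p21 ON (SD, n = 3 each), or -0.99 on the log2 scale (limma adjusted p = 2.19e-09). TUBB4B, listed under the older symbol TUBB2C, had -0.83 (limma adjusted p = 2.79e-09) and TUBA1B -0.58 (limma adjusted p = 8.37e-07).

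Both cytoplasmic actins fell too. ACTB had 80508, 78034 and 73344 normalized counts with p21 OFF and 58081, 60690 and 60319 with p21 ON, and ACTG1 had a log2 fold change of -0.38 (limma adjusted p = 0.000504). Actin and tubulin genes have many close copies between which reads can be divided.

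Of 14 other reported clients, 5 were lower, 1 was higher and 8 were neither. Of all genes tested, 12.7% were lower and 10.5% higher. The log2 fold change of PLK1, a mitotic kinase, was -1.44 (limma adjusted p = 2.07e-11) and that of CDC20, an activator of the anaphase-promoting complex, was -1.55 (limma adjusted p = 8.38e-11). Another gene called lower, the histone deacetylase HDAC3, had a log2 fold change of -0.18 (limma adjusted p = 0.0496) and was not called by edgeR or DESeq2, with TMM factors, or when any library but p21 OFF replicate 3 was dropped. WRAP53, which guides telomerase RNA, changed by -0.83 (limma adjusted p = 6.01e-07). CCNE1, the gene of cyclin E1, was the one called higher, with a log2 fold change of 0.73 (limma adjusted p = 1.35e-05). The lists contain different numbers of genes and were not tested against one another.

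The genes with the most similar pattern were found by Pearson correlation of log2 levels with the mean of the 8 subunits over the 6 libraries. This is a description in which the points share the split into 2 groups and the order of depth. Of 10434 other genes with a mean of at least 100 normalized counts, 537 had a correlation above 0.95. The 5 highest were NDUFS6, a subunit of respiratory complex I, at 0.999, the splicing regulator TRA2B at 0.997, the cytochrome CYB5B at 0.996, ATP5B, the beta subunit of mitochondrial ATP synthase, at 0.996 and the RNA helicase DDX47 at 0.996. NDUFS6 had 854, 777 and 750 normalized counts with p21 OFF and 591, 673 and 590 with p21 ON, with replicate 1 and replicate 2 highest in their groups as for the subunits. With the length trend taken out NDUFS6 was no longer called (limma adjusted p = 0.225).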

How the data were processed

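RNA sequencing of 6 SaOS-2 libraries was analysed. The authors prepared stranded mRNA libraries, mapped single-end reads to hg19 with STAR, counted reads per gene name with HTSeq and divided the counts by DESeq2 size factors, and the deposited signal per gene is this normalized count. Their versions, annotation and counting strand are not given in the sources used here. Reads were recovered from the table, since 100% of values in each library came out whole (tolerance 0.01 of a read) when divided by its smallest step. Because the table holds normalized values, limma 3.58.1 in R 4.3.3 (lmFit and eBayes with a trend, no covariates) was run on log2(normalized count + 1) over genes with a mean of at least 10. Fold changes are on that scale. The threshold was a Benjamini-Hochberg adjusted p-value under 0.05, and intervals are 95% intervals from the same fit. The alternatives were edgeR 4.0.16 (quasi-likelihood, TMM) and DESeq2 1.42.0 on the recovered reads, other scalings, pseudocounts, filters and thresholds, a replicate block, and each library left out. The fit was also run on simulated data with an assumed spread, and no result given here rests on that run. The members and lists were chosen with earlier results of these data known. Named genes are the 8 subunits, CDKN1A, up to 3 genes called in each direction per list with all prefoldin, phosducin-like and heat shock factor genes, divergent neighbours and the 5 genes closest in pattern. Further list genes (HDAC3 among them), the CCT6A pseudogenes and list markers were named after their values were seen. One listed marker is not reported here. Symbols missing from the table were matched by RefSeq synonyms. Positions and sequences are from GRCh37 with GENCODE release 44 lifted to it.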

Additional observations from a re-analysis of the deposited data

How the results depend on the processing

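All 8 subunits had negative log2 fold changes in the main fit and in all 16 alternatives, and none was called higher in any of them. Every p21 ON library lay below every p21 OFF library for all 8, so dropping a library or altering the pseudocount could not change the sign. The replicate block, the filter and the threshold left the fold changes themselves unchanged. The number called lower was 8 with edgeR (12.4% of all genes), DESeq2 (10.6%), TMM factors (12.5%) and 0.1 or 10 in place of 1 as the pseudocount (12.7% each). It was 8 without the filter on means (8.35% of 18210 genes) and after removal of a length trend, added after seeing the data (13.2% of 11293 genes). It was 7 under scaling by library size alone (9.01%). At an adjusted p-value under 0.01 it was also 7, and the share of all genes was not counted there. With each library left out it was 6 to 8, against 6.69% to 12.5% of all genes, and the median log2 fold change was -0.34 to -0.25. The median was -0.25 under scaling by library size, where the median of all genes was 0.05, and -0.23 with the length trend removed. Of 128 comparisons of a subunit with an alternative, 122 kept the call and 6 lost it, 4 of them for CCT6A. Replicate numbers are shared between the groups, but libraries with the same number did not deviate together (correlations over genes of -0.06, -0.02 and -0.05), so they were not taken as pairs. With the replicate block the number called lower was 8 and the median was -0.29, and over all genes 1513 were lower and 1407 higher, against 1681 and 1393 without it. Of the other genes named, RUVBL1 (adjusted p = 0.0650), ARL2 (adjusted p = 0.0638), HDAC3 (adjusted p = 0.0989) and CYB5B (adjusted p = 0.0618) were not called by limma with the block. Over all genes, 887 were lower and 695 higher without p21 ON replicate 1, and 1077 and 739 without p21 ON replicate 3. Where calls changed the cause was not tested.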
